A study of Mus musculus with 5375 samples.

Results

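MHC class I molecules were examined through 8 genes that build, load or control them: H2-K1, H2-D1, B2m, Tap1, Tap2, Tapbp, Nlrc5 and Erap1. These genes were given by name, with no threshold on their values, and all 8 were found among the 35308 genes of the endothelial tables and the 35299 genes of the tumour cell tables. The data were single-cell RNA profiles of lung endothelial cells (ECs) and of 4T1-GFP tumour cells (TCs), a GFP-expressing breast cancer line of BALB/c origin, in female wild-type BALB/c mice of 8 to 12 weeks. ECs, sorted as CD31+ cells negative for CD45, PDPN, LYVE and TER119, came from uninjected animals (day 0, 4 mice) and from animals that had received 4T1-GFP cells into a vein 1.5 or 3.5 days earlier (3 mice each). TCs had been stained before injection with CellTrace, a dye that is lost by division, and were sorted as intravascular and extravascular cells of the same 4 mice on day 1.5 and as latent cells of 4 other mice on day 3.5. Proliferative TCs of day 3.5 are all listed under 1 animal although the labels count 4 replicates, and cultured TCs before injection were 1 pool, so neither had a replicate here. Per the deposited annotation the EC animals 1 to 3 of days 1.5 and 3.5 are the TC animals 1 to 3 of the same day, and the proliferative cells are listed under the mouse of latent animal 4. Latent TCs had kept the dye and proliferative TCs had diluted it. Intravascular TCs were those stained by an antibody against H-2Kd that was injected into the blood shortly before sampling. H2-K1 encodes the target of that antibody, so the protein of one member took part in the day 1.5 gate, whereas its RNA did not. One TC line, one strain and intravenous seeding limit these groups as a model of metastasis.

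A class I molecule consists of a heavy chain, here H2-K1 or H2-D1, and the light chain beta-2 microglobulin (B2m). Peptides cut by the proteasome in the cytosol are pumped into the endoplasmic reticulum by the transporter Tap1-Tap2, trimmed by the aminopeptidase Erap1 and handed to the empty heavy chain by tapasin (Tapbp). Nlrc5 is a transactivator of class I genes, and interferons raise the whole set together with 3 exchangeable proteasome subunits (Psmb8, Psmb9 and Psmb10). ECs line the vessels that arriving TCs meet, and loss of class I is a known route by which tumour cells avoid CD8+ T cells.

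In build GRCm38 the 8 genes lie on 4 chromosomes. Within the MHC on chromosome 17 are H2-K1 (33996017 to 34000347, minus strand), Tapbp (33915899 to 33929292), Tap1 (34187553 to 34197225), Tap2 (34203527 to 34216321) and H2-D1 (35262730 to 35267499), the last 4 on the plus strand. B2m lies on chromosome 2 (122147686 to 122153083), Nlrc5 on chromosome 8 (94434356 to 94527272) and Erap1 on chromosome 13 (74639568 to 74693201), all on the plus strand. Values are given per gene, over all its annotated transcripts. Of all windows of 50 bases in these transcripts, 13.9% of those of H2-D1 also occurred in other genes, foremost H2-Q1, and 6.87% of those of H2-K1, foremost H2-D1. The corresponding share was 22.4% for Tapbp, 13.7% for Erap1, 12.1% for Tap2 and 6.27% for Tap1, in each case foremost a gene that overlaps it on the opposite strand, and 0% for B2m and Nlrc5. The reference is of another class I haplotype than BALB/c mice, which in addition carry H-2L, a gene with no row in these tables. Counts of single heavy chain genes are therefore uncertain, and class I rows were also tested as 1 sum.

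Promoter sequence is shown because both heavy chain promoters hold the same motifs in the same order, while the light chain promoter holds a differently spelled interferon motif. The sequences are those of RefSeq (GRCm38.p6), read towards the start of the gene. Capitals mark an interferon-stimulated response element (ISRE) in a short (GAANNGAAA) or a full spelling, which has 1 more A before the gap, a palindromic NF-kB motif, a cyclic AMP response element core (TGACG) and a CCAAT box, on either strand, of which the NF-kB matches on both strands overlap. The H2-K1 and B2m sequences end 1 base before the annotated gene.
H2-K1, chr17:34000348-34000597, minus strand: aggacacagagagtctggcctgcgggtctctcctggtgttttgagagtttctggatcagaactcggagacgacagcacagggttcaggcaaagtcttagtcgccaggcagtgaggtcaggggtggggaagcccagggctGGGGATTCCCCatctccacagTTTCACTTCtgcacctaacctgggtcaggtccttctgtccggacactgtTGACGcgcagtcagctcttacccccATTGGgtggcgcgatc
B2m, chr2:122147437-122147685, plus strand: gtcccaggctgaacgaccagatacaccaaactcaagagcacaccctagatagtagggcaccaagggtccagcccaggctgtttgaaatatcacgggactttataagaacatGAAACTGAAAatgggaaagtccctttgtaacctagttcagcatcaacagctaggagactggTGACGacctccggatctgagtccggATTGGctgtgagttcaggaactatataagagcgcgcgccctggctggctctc
The RefSeq start of H2-D1 lies 364 bases past the start of the annotated gene, so the 250 bases before it are in an exon of a longer annotated transcript, and only the stretch from the NF-kB motif to the ISRE is set beside that of H2-K1.
H2-K1 motif stretch, chr17:34000429-34000458, minus strand: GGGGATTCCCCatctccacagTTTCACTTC
H2-D1 motif stretch, chr17:35262923-35262952, plus strand: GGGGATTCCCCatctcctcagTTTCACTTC
In both heavy chain promoters the NF-kB motif, the short ISRE, the TGACG core and the inverted CCAAT box follow each other in this order. The B2m promoter holds the full ISRE spelling, which the heavy chain promoters do not, and then the TGACG core and the inverted CCAAT box, with no match to the short ISRE or the NF-kB motif. The stretch between the divergent starts of Psmb9 and Tap1 lies in an annotated Psmb9 exon and is not shown, and holds the TGACG core and a CCAAT box. Of 32851 promoters of this length, 6.31% held the short and 2.98% the full ISRE, 4.77% the NF-kB motif, 17.8% the TGACG core and 33.8% a CCAAT box. The gamma-interferon activation site motif (TTCNNNGAA), found in 7.02% of promoters, was in none of the 6 member promoters searched. The promoters of the proteasome genes Psmb8, Psmb9, Psmb10, Psme1 and Psme2 were searched as well. Of these, that of Psmb8 held the motif, within annotated exons. The promoters of Tapbp and Erap1, which lie in annotated exons and are not shown, held no ISRE or NF-kB match, and that of Tapbp held CCAAT boxes. A match is a string of letters and not a bound site, and the lack of one says only that these letters are not in the window. Tap2 and Nlrc5 were named only.

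The deposited tables of kept cells hold 2479 of 3455 ECs and 1566 of 1920 TCs, and reads of kept cells were summed per animal and group. EC sums came from 180 to 335 cells and 75.6 to 129.5 M reads (M, 1000000 reads), and TC sums of in vivo animals from 69 to 85 cells and 31.9 to 49.9 M reads. The proliferative pool held 237 cells and 163.5 M reads and the culture 369 cells and 92.1 M reads. ECs had 16524 to 29004 CPM (counts per 1000000 counts of the whole library) of 10 endothelial markers, TCs 20.9 to 63.0 CPM. TCs had 2816 to 6497 CPM of 9 mammary tumour epithelial markers, ECs 3.34 to 21.6 CPM. Summed immune markers reached 271.5 and 208.4 CPM in latent animals 1 and 4, where 1 cell each reached 16506 and 11695 CPM, and at most 8.0 CPM in every other TC library. The latent results below were therefore also computed without such cells.

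Heavy and light chain RNA was abundant in ECs and lower in TCs, and among TCs the heavy chains were highest in the latent gate. H2-K1 stood at 1926, 1877, 1834 and 1895 CPM in the 4 day 0 EC animals, at 1461, 1357 and 1611 CPM on day 1.5 and at 1341, 1641 and 1901 CPM on day 3.5. In TCs it was at 236.6 CPM in culture, 184.1, 313.9, 409.2 and 266.8 CPM in intravascular, 222.4, 321.8, 337.8 and 357.2 CPM in extravascular, 719.4, 815.3, 777.2 and 630.2 CPM in latent and 526.6 CPM in proliferative cells. Every EC library lay above every TC library, and every latent library above every other TC library.
H2-D1 followed the same order of EC days at a higher count, and its latent libraries again led the TCs. It read 5047.5, 4785, 5305 and 5401 CPM on day 0, 3098, 3113 and 4295 CPM on day 1.5 and 3611, 4776 and 4866 CPM on day 3.5 in ECs. TC values were 880.8 CPM in culture, 542.2, 887.4, 1174.5 and 724.4 CPM in intravascular, 577.0, 1017, 1066 and 1066 CPM in extravascular, 1928, 2422, 2087 and 1732 CPM in latent and 1568 CPM in proliferative cells. The lowest latent library stood above the proliferative pool, which stood above every culture and day 1.5 library.
B2m, the most abundant member, behaved differently within TCs. ECs gave 7951, 9923, 11929 and 12377 CPM on day 0, 9587, 5062 and 13361 CPM on day 1.5 and 11537, 11081 and 13055 CPM on day 3.5. TCs gave 1508 CPM in culture, 2079, 2187, 2910 and 2459 CPM in intravascular, 2096, 2131, 2093 and 1704 CPM in extravascular, 2526, 2395, 2680 and 2414 CPM in latent and 1622 CPM in proliferative cells. Latent and intravascular libraries overlapped, and the culture and proliferative pools were lowest.

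The loading genes were far less abundant. Tapbp was at 327.0 to 466.2 CPM in day 0 ECs, 306.3 to 527.4 CPM on day 1.5 and 268.8 to 321.0 CPM on day 3.5. It was at 46.9 CPM in culture, 65.98 to 111.2 CPM over the day 1.5 TC libraries, 109.2 to 148.2 CPM in latent and 124.1 CPM in proliferative cells. The EC and TC ranges of Tapbp did not meet.
Tap1 had 24.8 to 92.9 CPM over the EC libraries and 0.407 to 10.2 CPM over the TC libraries. Tap2 had 12.6 to 76.1 CPM in ECs and 1.79 to 14.0 CPM in TCs, so that the lowest EC and the highest TC library of Tap2 crossed. Nlrc5 (1.45 to 30.5 CPM in ECs, 1.2 to 8.21 CPM in TCs) and Erap1 (2.91 to 58.8 CPM in ECs, 2.60 to 10.4 CPM in TCs) overlapped between the cell types.
These low values rest on few cells. A single cell supplied 94.6% of all Tap1 reads of extravascular animal 3 and 92.0% of the Nlrc5 reads of day 1.5 EC animal 2, while no latent cell supplied over 27.3% of the Tap1 reads of its animal. Per kilobase of the longest coding transcript, day 0 EC levels were 12261.5 CPM for B2m, 2443 CPM for H2-D1, 1163 CPM for H2-K1, 142.7 CPM for Tapbp, 15.1 CPM for Tap1, 8.33 CPM for Tap2, 4.03 CPM for Erap1 and 1.39 CPM for Nlrc5. On this per-length scale of levels the light chain thus stood above both heavy chains together, and the same held for latent TCs with 2911 CPM against 971.5 CPM and 454.3 CPM per kilobase.

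**Figure D1:**
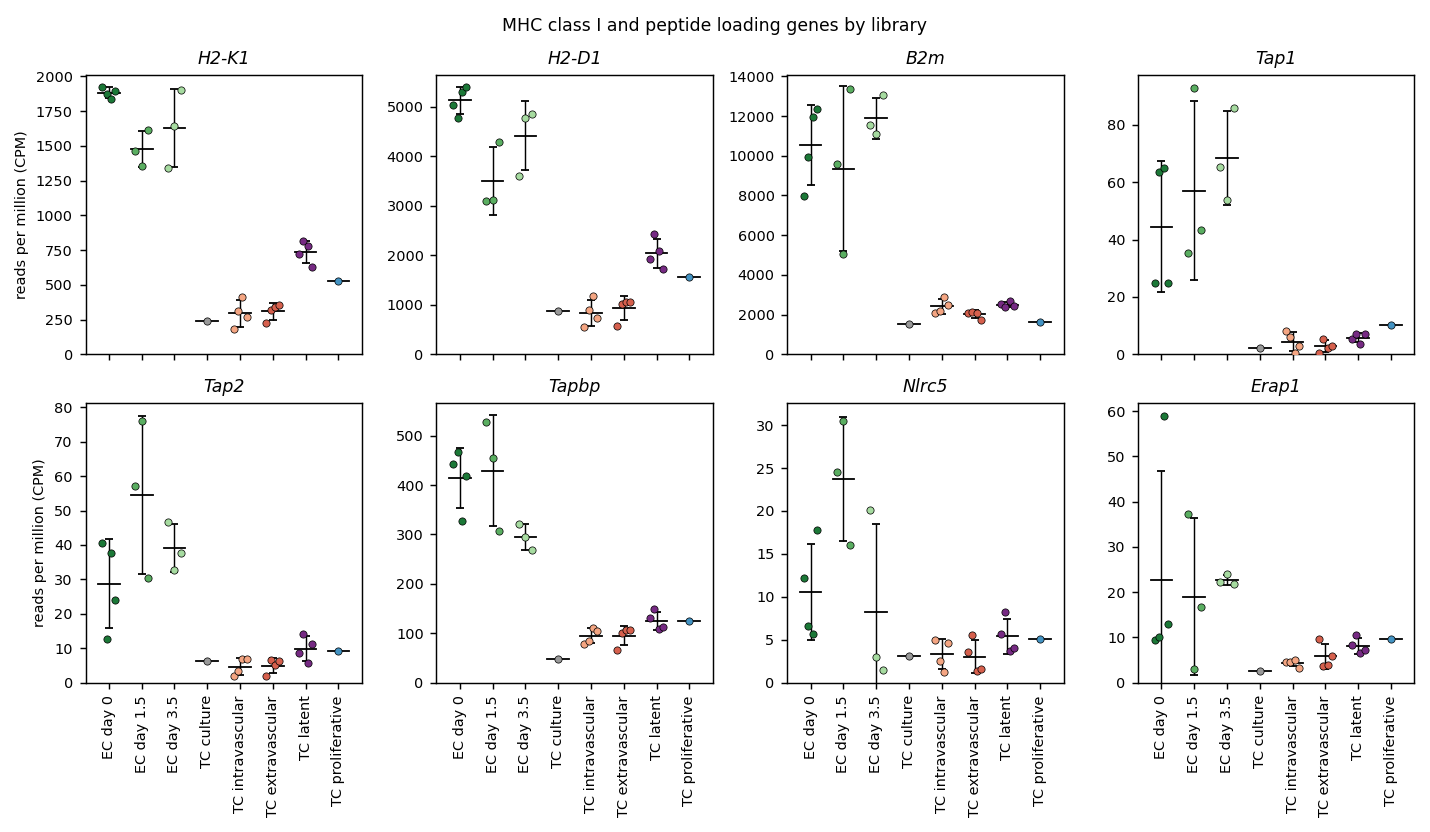
CPM level (linear axis from 0) of each of the 8 genes, 1 point per animal or pool, with group mean (line) and SD (bar, cut at 0 where it would go below). ECs stand above TCs for H2-K1, H2-D1, B2m, Tap1 and Tapbp, and latent TCs stand above the day 1.5 TCs for H2-K1 and H2-D1.

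Neighbouring groups in the order of levels were compared by a 2-sided exact permutation test, whose smallest possible p is 0.0571 for 4 against 3 animals, 0.0286 for 4 against 4 and 0.1 for 3 against 3. None of 31 neighbouring pairs passed after adjustment (0 with an unadjusted p below 0.05, smallest p = 0.0571 in the exact permutation test, adjusted p = 0.295). The pairs that reached that smallest p without overlap were day 1.5 ECs over latent TCs for H2-K1, H2-D1 and B2m, and day 0 over day 3.5 ECs and day 3.5 ECs over latent TCs for Tapbp. Pools without replicates entered no such test.

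The distance between tumour and endothelial cells was tested with edgeR's quasi-likelihood test on the sums of each animal, adjusted over all genes, here as everywhere below unless another tool is named. On day 1.5 all 8 members were lower in TCs (both gates together) than in ECs, in a comparison in which 46.5% of 22193 genes were called in either direction. The log2 difference was -1.86 ± 0.17 (SE) for H2-K1, -1.55 ± 0.19 for H2-D1 and -1.65 ± 0.18 for B2m, with a median of -1.80 over the members and -0.19 over all genes. It was -3.60 ± 0.60 for Tap1, -3.08 ± 0.43 for Tap2, -1.75 ± 0.18 for Tapbp, -2.47 ± 0.61 for Nlrc5 and -1.51 ± 0.55 for Erap1 (adjusted p = 0.0317, the largest of the 8 in edgeR). The Erap1 call was lost with the animal as a block (7 members and 9129 of 17052 genes then called, adjusted p = 0.138 for Erap1 in edgeR). It was also lost on mean per-cell CPM in limma (-1.11, adjusted p = 0.0947, where 44.1% of all genes were called) and without the cell with most Erap1 reads in each library (-1.34, adjusted p = 0.0684 in edgeR). The same held without any 1 of 5 libraries: EC animals 1 (-0.51) and 3 (-1.61), extravascular animals 2 (-1.44) and 3 (-1.44) and intravascular animal 4 (-1.46).
On day 3.5 latent TCs were lower than ECs for 6 members, with 38.3% of genes called. H2-K1 differed by -0.92 ± 0.20 and H2-D1 by -0.89 ± 0.22 (log2), less than on day 1.5, although this change over time was not tested. B2m differed by -2.02 ± 0.22, Tap1 by -3.34 ± 0.77, Tap2 by -1.75 ± 0.52 and Tapbp by -1.01 ± 0.21. Nlrc5 (-0.38 ± 0.74, adjusted p = 0.715) and Erap1 (-1.26 ± 0.66, adjusted p = 0.135) did not pass in edgeR. The Nlrc5 difference was 1.49 without day 3.5 EC animal 1, in which a single cell supplied 73.9% of the Nlrc5 reads, and its sign also turned with the animal as a block. The study amplified EC cDNA with more PCR cycles than TC cDNA and sequenced ECs and TCs in separate lanes. Cell type, PCR cycles and lane therefore cannot be told apart. On the deposited housekeeping scale 3 genes of the day 1.5 and 4 of the day 3.5 comparison turned sign (Tapbp, Nlrc5 and Erap1 in both, Tap2 on day 3.5). On that scale, in limma, the day 3.5 calls of H2-K1 (-0.53, adjusted p = 0.0845), H2-D1 (-0.57, adjusted p = 0.0643) and Tap1 (-0.32, adjusted p = 0.106) and the day 1.5 call of Tap2 (-0.34, adjusted p = 0.117) were lost too. B2m itself is in the housekeeping panel and supplied 53.9 to 67.1% of the panel's reads in ECs and 7.29 to 14.4% in TCs, so that its value on that scale is relative to a sum that holds B2m itself.

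Partner genes were grouped by role. Of 18 other class I chains tested, 17 were lower in day 1.5 TCs than in ECs and 0 higher, and of 30 interferon-stimulated genes 23 were lower and 0 higher, where 46.5% of all genes were called in either direction. In latent TCs against day 3.5 ECs the counts were 7 lower of 18 chains and 14 lower of 30 interferon-stimulated genes, beside 38.3% of all genes called there. The chain count became 4 without latent animal 4 or with the animal as a block and 11 on library totals alone, where 39.1% of all genes were called. On the deposited housekeeping scale 8 chains were higher and 2 lower and 8 interferon-stimulated genes higher and 8 lower in latent TCs, so that in this comparison neither list has a direction that holds on both scales. That scale called 72.4% of all genes in this comparison and 73.1% in the day 1.5 one. In the day 1.5 comparison the deposited scale gave 12 chains lower and 2 higher and 17 interferon-stimulated genes lower and 4 higher.

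No member passed the test between days in ECs. On day 1.5 H2-K1 lay at 1357 to 1611 CPM against 1834 to 1926 CPM on day 0, and H2-D1 at 3098 to 4295 CPM against 4785 to 5401 CPM. The log2 difference was -0.41 ± 0.14 for H2-K1 (adjusted p = 0.512) and -0.62 ± 0.14 for H2-D1 (adjusted p = 0.407) in edgeR, where 0% of 17585 genes were called. On day 3.5 the ranges of both genes overlapped with those of day 0, at -0.28 ± 0.14 each.
In edgeR 0 members were called on day 1.5 against day 0 (2 at an unadjusted p under 0.05, H2-K1 and H2-D1), 0 on day 3.5 against day 0 (1 unadjusted, Tapbp) and 0 on day 3.5 against day 1.5 (1 unadjusted, Tapbp). The share of all genes called was 0% in the latter 2 comparisons too. At an unadjusted p under 0.05 in edgeR were 1422, 1541 and 798 of the 17585 genes in the 3 comparisons. DESeq2 called 358, 508 and 133 genes in these comparisons (2.01, 2.91 and 0.762%), and 0 members in each. Limma also called 0 members, beside 0.0114, 0.00569 and 0% of genes on mean per-cell CPM and 0.917, 1.49 and 0% on the deposited values. The first 2 comparisons share the day 0 animals.
The other members did not pass after adjustment either. Tap2 had 30.4, 57.2 and 76.1 CPM on day 1.5 and 12.6, 23.9, 37.5 and 40.6 CPM on day 0, which gave 0.89 ± 0.47 (log2, adjusted p = 0.671 in edgeR). Nlrc5 differed by 1.11 ± 0.86 on day 1.5, and Tapbp by -0.56 ± 0.23 on day 3.5 (adjusted p = 0.527 in edgeR). B2m ranged from 5062 to 13361 CPM within day 1.5 alone.
No gene of the other lists was called between EC days either: 0 of 18 class I chains, 0 of 5 proteasome genes, 0 of 30 interferon-stimulated genes and 0 of 16 transcription factors in edgeR. DESeq2 called 2 and 3 of the 30 interferon-stimulated genes higher on days 1.5 and 3.5 than on day 0, beside 2.01 and 2.91% of all genes, and limma on the deposited values 4 and 6, beside 0.917 and 1.49% of all genes. DESeq2 also called 1 transcription factor higher on day 1.5, and 1 higher, 1 lower and 1 folding partner lower on day 3.5. Day 0 animals had been sorted on 2 days, and a comparison only with day 0 animals of the same sort day also gave 0 members. EC lanes coincide with animals on the later days, and the 2 cannot be told apart.

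The share of ECs with at least 1 read of a gene was compared after bringing each cell to 100000 reads by calculation, which left out 115 of 839, 86 of 941 and 131 of 699 shallower cells on days 0, 1.5 and 3.5. H2-K1, H2-D1 and B2m were detected in 96.8 to 100% of cells of every EC library before this step. Tap1 was found in 10.4% ± 2.0 (SD, n = 4) of ECs on day 0, 13.6% ± 1.8 (n = 3) on day 1.5 and 16.7% ± 2.2 (n = 3) on day 3.5 at 100000 reads, and in 13.3%, 19.0% and 21.3% without it. Day 0 and day 3.5 did not overlap, with the smallest p this design allows (exact permutation test, p = 0.0571, adjusted p = 0.208 over 40 such tests).
Nlrc5 (3.66% ± 0.51 on day 0 and 5.16% ± 0.88 on day 3.5) and Erap1 (6.90% ± 1.2 and 10.12% ± 1.7) likewise did not overlap between day 0 and day 3.5, at the same exact permutation p of 0.0571. These were 3 of 8 members, while 19.8% of 14726 genes (mean share of 1% or more) lay higher on day 3.5 with no overlap and 0.618% lower. The median cell had 2313 to 2973.5 genes in the day 3.5 libraries and 1951 to 2515 in the day 0 libraries, whose part was not tested. At 50000 reads Nlrc5 overlapped (3.44% on day 0 and 3.78% on day 3.5, exact permutation p = 0.686), and without equal depth both did (exact permutation p = 0.343 for Nlrc5 and 0.114 for Erap1), beside 14.3% of genes higher and 0.681% lower with no overlap. The CPM levels of these genes did not follow their shares: Nlrc5 was at 10.6 CPM on day 0 and 8.18 CPM on day 3.5, and Erap1 at 22.8 and 22.7 CPM.

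Lung capillaries hold general capillary ECs (gCap) and aerocytes (aCap), which face the air spaces. With the study's marker lists, in which no member appears, 1580 ECs were gCap and 602 aCap. B2m was at 10526 ± 2409 CPM in gCap and 12186 ± 4017 CPM in aCap (mean ± SD, n = 10 animals) and lower in gCap in 7 of 10 animals. H2-D1 was at 4439 ± 942 and 4828 ± 780 CPM, also lower in gCap in 7 of 10 animals. H2-K1 was at 1757 ± 249 and 1711 ± 272 CPM, and lower in gCap in 3 of 10 animals.
In a fit blocked on the mouse, edgeR called 2 members, B2m (-0.54 ± 0.08, adjusted p = 5.94e-04) and H2-D1 (-0.50 ± 0.07, adjusted p = 2.79e-04), both lower in gCap, and 8.88% of 13429 genes. The median of all genes was 0.25 in the same fit, so these differences are relative to that scaling. On library totals alone, without scaling factors, the all-gene median was 0.62 and the differences were -0.18 for B2m and -0.13 for H2-D1, with 0 members and 10.4% of all genes called. Both calls were also lost in limma on mean per-cell CPM (B2m -0.20, adjusted p = 0.0834, and H2-D1 -0.16, adjusted p = 0.175, where 13.2% of all genes were called) and on the deposited values (-0.25, adjusted p = 0.0970, and -0.11, adjusted p = 0.642), where 24.2% of all genes were called and of the members Tapbp alone (-0.83, adjusted p = 0.0119). H2-K1 was at -0.32 ± 0.10 (adjusted p = 0.0698) in edgeR and at 0.05 without scaling factors, so its direction turns with the scaling. It was called lower in gCap in DESeq2 (-0.37, adjusted p = 0.0218) and in edgeR with RLE factors (-0.37, adjusted p = 0.0374).
Class II genes, which present peptides to CD4+ T cells, separated the classes by far more. All 6 that were tested were higher in gCap, among them the invariant chain Cd74 (383.2 against 4.99 CPM) and the chains H2-Ab1 (590.8 against 16.6 CPM) and H2-Aa (280.7 against 3.54 CPM), the chain H2-Eb1 (224.4 against 10.6 CPM) and the peptide editor chains H2-DMa and H2-DMb1. Their transactivator Ciita was at 30.4 against 0.122 CPM and also called. The NF-kB subunit Rela (-1.63 ± 0.33), the interferon-gamma receptor chain Ifngr2 (-1.04 ± 0.22) and Sec61b (-1.31 ± 0.21), a subunit of the translocon, were lower in gCap. Of 28 interferon-stimulated genes 5 were higher and 0 lower in gCap (2 without day 0 animal 3, 3 without the block or without day 1.5 animal 2, day 3.5 animal 1 or day 3.5 animal 2, and 9 in DESeq2, which called 20.5% of all genes). These were the GTPases Ifi47 (87.0 against 13.9 CPM), Iigp1 (78.1 against 5.44 CPM) and Gbp3 (20.7 against 4.56 CPM), Ifit1 (16.1 against 0.588 CPM) and the nucleic acid sensor Zbp1 (28.8 against 2.35 CPM). Of 17 other class I chains, Cd1d1 (21.7 against 0.166 CPM) and H2-Q7 (356.1 against 167.4 CPM) were higher, of which 1 was left without day 0 animal 4, day 1.5 animal 1 or day 3.5 animal 1, and 4 chains were lower in DESeq2. No member passed a test of whether the difference between classes depended on the day (smallest unadjusted p = 0.0512, Tap2, adjusted p = 1.00 in edgeR).

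Whether TCs had left the vessel on day 1.5 made no called difference to any member. H2-K1 at 184.1 to 409.2 CPM in intravascular and 222.4 to 357.2 CPM in extravascular TCs gave a log2 difference of -0.01 ± 0.21. H2-D1 gave 0.08 ± 0.23, Tapbp -0.08 ± 0.17, Tap1 -0.71 ± 0.75, Tap2 0.02 ± 0.48, Nlrc5 -0.19 ± 0.52 and Erap1 0.34 ± 0.32. Each of these signs but that of Tap1 turned in a fit that left out 1 library. B2m was at 2409 ± 370 CPM in intravascular and 2006 ± 202 CPM in extravascular TCs, overlapped by a little, and differed by -0.34 ± 0.11 (unadjusted p = 0.00950, adjusted p = 0.149 in edgeR).
In edgeR 0 members were called and 0.951% of 19249 genes. At an unadjusted p under 0.05 in edgeR were 1 member (B2m) and 3382 of the 19249 genes. DESeq2 (8.24% of genes called) and limma (1.51% on mean per-cell CPM, 7.85% on the deposited values) called 0 members. So did a fit with the replicate number as a block (370 of 15639 genes called). A fit of the 2 gates alone with the animal as a block also called 0 members (34 of 14697 genes).
The proteasome list was lower outside the vessel in 3 of its 5 genes. Psmb8, a catalytic subunit of the immunoproteasome, had 172.9, 196.7, 216.2 and 202.1 CPM in intravascular and 101.1, 102.5, 72.3 and 101.4 CPM in extravascular TCs, with no overlap and a log2 difference of -1.14 ± 0.13 (adjusted p = 3.21e-03 in edgeR). Psmb10 differed by -0.62 ± 0.09 and the proteasome activator subunit Psme2 by -0.46 ± 0.09. This count fell to 1 (without extravascular animals 3 or 4 or intravascular animal 4) and to 1 when the 2 gates alone were fitted with the animal as a block, and it was 4 in DESeq2 and 5 on the deposited values. Of 30 interferon-stimulated genes only Xaf1 was called, at -0.73 ± 0.15, and it was lost in 8 of 13 fits that left out 1 library, while DESeq2 called 3 of the list. Each gate was sequenced in its own lane, so that gate and lane cannot be told apart.

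**Figure D2:**
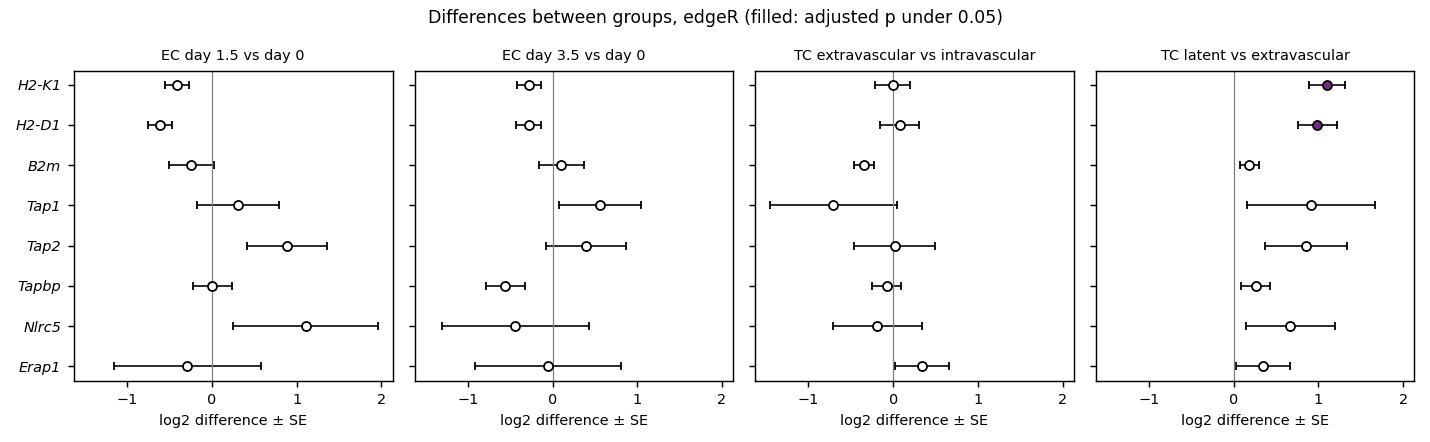
Log2 differences with standard errors (horizontal axis) of the 8 genes in 4 comparisons, from edgeR on sums per animal, with filled points for an adjusted p under 0.05. Only H2-K1 and H2-D1 in latent against extravascular TCs are filled, at 1.11 and 0.99.

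Members were called among TC gates only between latent cells of day 3.5 and extravascular cells of day 1.5, of the 3 gate comparisons tested. H2-K1 was 2.15-fold higher in latent TCs (log2 1.11 ± 0.21, adjusted p = 5.71e-03 in edgeR) and H2-D1 was 1.98-fold higher (0.99 ± 0.23, adjusted p = 1.83e-02 in edgeR), with no overlap between the 4 animals of either group. Both genes were called, 2 of the 8 members, where 8.57% of 19249 genes were called. The other members had positive values that did not pass: Tap1 0.91 ± 0.75, Tap2 0.85 ± 0.48, Nlrc5 0.67 ± 0.52, Erap1 0.34 ± 0.32, Tapbp 0.26 ± 0.17 and B2m 0.18 ± 0.11. The median was 0.76 over the members and 0.03 over all genes.
These 2 calls were made in each of 13 fits that left out 1 library and in 10 other settings that kept both rows. Over all of these the H2-K1 difference ranged from 0.97 to 1.25 and the H2-D1 difference from 0.81 to 1.13, with the largest adjusted p at 0.0164 and 0.0489, both in edgeR. On the deposited values, where 27.1% of 18529 genes were called, 6 members were. Removing cells with immune markers left both calls. Of the marker lists of other cells, 1 of 12 immune, 1 of 8 stromal and mural and 2 of 7 red cell and platelet genes were called higher in latent TCs, 0 of 9 endothelial and 0 of 8 lung epithelial ones, and none lower. Summed endothelial markers were at 24.3 to 63.0 CPM in latent and 20.9 to 29.2 CPM in extravascular libraries, stromal and mural ones at 1.43 to 17.1 and 1.95 to 4.92 CPM, and red cell and platelet ones at 5.11 to 16.7 and 2.33 to 6.30 CPM. Of 9 mammary tumour epithelial genes 2 were higher (Krt19 and Cldn4). The part of these lists in the result was not tested. Time, gate, animals and lane all differ between these groups and cannot be told apart, and the median mitochondrial share of reads was 1.48 to 1.94% in latent and 2.23 to 3.16% in extravascular libraries, whose part in the result was not tested.

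The difference was spread over most latent cells. The median latent cell had 481.1 to 599.5 CPM of H2-K1 over the 4 animals, the median extravascular cell 148.6 to 258.5 CPM. Of latent cells 75 to 81.2% lay above 205.9 CPM, the median of the medians of the 4 extravascular libraries. The share was 33.3 to 53.6% of extravascular, 25.6 to 53.8% of intravascular, 73.0% of proliferative and 40.1% of cultured cells. For H2-D1 the corresponding shares were 75 to 81.2% in latent, 32.0 to 63.8% in extravascular and 20.7 to 45% in intravascular cells, 72.2% of proliferative and 49.3% of cultured cells (above 632.0 CPM). The lower quartiles of the latent animals, 217.9 to 272.1 CPM for H2-K1, fell in the range of the extravascular medians or above it.
Within a library, cells high in H2-K1 were high in H2-D1. Spearman's rho over cells was 0.79 to 0.94 in the TC libraries and 0.45 to 0.73 in the EC libraries, which is a description over cells that share a library and over genes that share sequence. H2-K1 with B2m gave 0.37 to 0.57 in the day 1.5 and latent TC libraries, 0.23 in culture, 0.15 in the proliferative pool and 0.02 to 0.45 in the EC libraries.

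**Figure D3:**
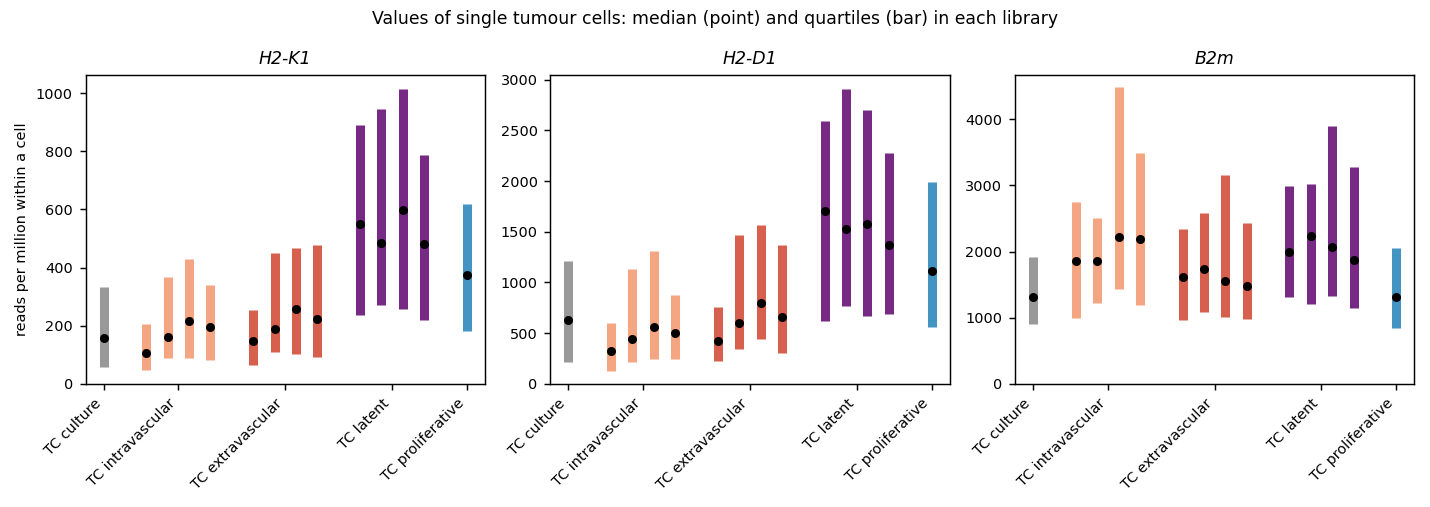
CPM level within single TCs for H2-K1, H2-D1 and B2m, 1 bar per library from the lower to the upper quartile of cells with the median as a point. The medians of the 4 latent libraries lie above those of all other libraries for H2-K1 and H2-D1, and not for B2m.

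The share of cells with reads of a loading gene was compared between the same gates at 100000 reads per cell (12 of 306 extravascular and 20 of 329 latent cells left out). Tap1 was found in 13.8% ± 3.5 of latent and 3.77% ± 2.4 of extravascular TCs, Tap2 in 22.5% ± 2.3 and 12.7% ± 4.7 and Nlrc5 in 16.3% ± 2.4 and 7.85% ± 2.9 (SD, n = 4 each). Without this step the shares were 21.8 and 7.10% for Tap1, 36.9 and 22.6% for Tap2 and 25.4 and 13.9% for Nlrc5. None of the 3 overlapped at equal depth, and each gave the smallest p of the design, whereas without equal depth all 3 overlapped (exact permutation p = 0.0571 each). At equal depth the 2-sided exact permutation test gave p = 0.0286 for each (adjusted p = 0.190 over 40 tests).
H2-K1 and H2-D1, detected in 96.8 and 99.2% of extravascular and 99.1 and 100% of latent cells at that depth, gave the same p. Thus 5 of 8 members were higher in latent cells with no overlap, while 28.5% of 16383 genes (mean share of 1% or more) were so and 3.39% were lower. Without equal depth it was 1 member, beside 19.8% of genes higher and 3.5% lower. The median cell had 6554.5 to 6869.5 genes in latent and 5721 to 6080.5 in extravascular libraries, whose part was not tested. Of the 40 share tests 0 passed the adjustment and 6 had p below 0.05. Tapbp (85.7% ± 2.7 in latent, 76.2% ± 7.7 in extravascular) and Erap1 (22.6% ± 2.8 and 14.8% ± 3.4) overlapped between the gates. Without equal depth Erap1 did not overlap, at 34.0 and 24.3% (exact permutation p = 0.0286), so which genes separate the gates depends on this step.

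**Figure D4:**
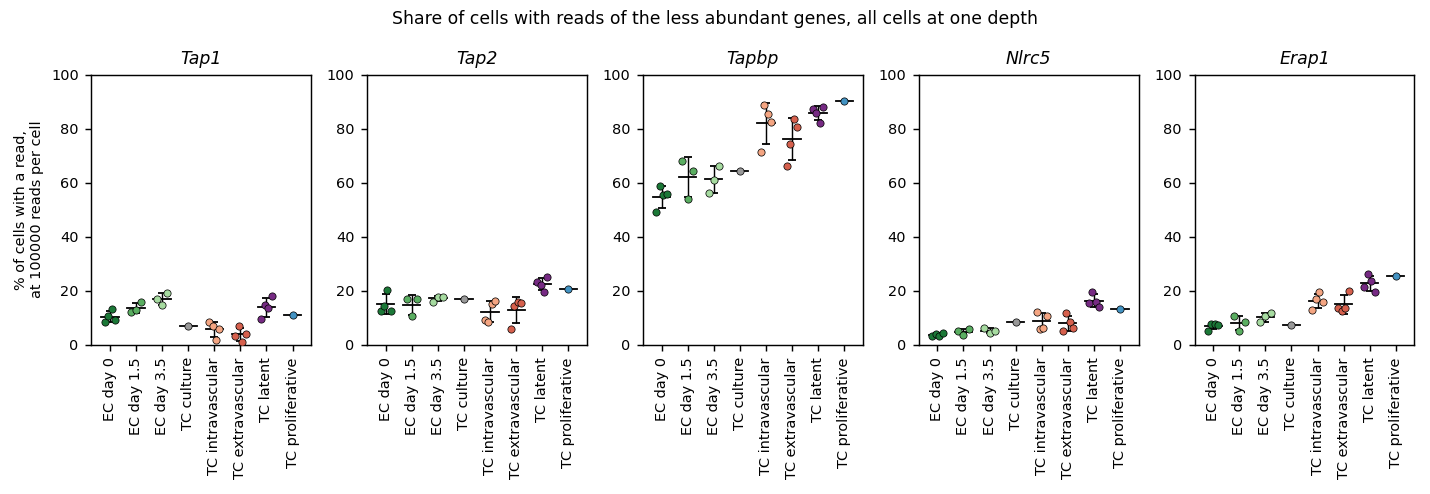
Percent of cells with at least 1 read of the 5 less abundant genes when every cell is brought to 100000 reads, 1 point per animal or pool with mean (line) and SD (bar). Latent TCs lie above extravascular TCs for Tap1, Tap2 and Nlrc5, and Tapbp is found in 49.0% of cells or more in every library.

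Of 16 other class I chains tested, 9 were higher in latent than in extravascular TCs and 0 lower, with a list median of 1.33, where 8.57% of all genes were called in either direction. H2-Q6, at 35.5 to 83.1 CPM over the day 1.5 libraries, had 178.1, 227.2, 199.9 and 155.8 CPM in latent TCs (1.42 ± 0.25). The proliferative pool of day 3.5 had 131.3 CPM of it. H2-T23, the Qa-1 chain that NK cells read through NKG2A, was at 99.2 ± 34.9 against 32.1 ± 11.6 CPM (1.48 ± 0.29). H2-Q7 (1.36 ± 0.22), H2-T22 (1.08 ± 0.19), H2-Q4 (1.38 ± 0.25) and H2-K2 (1.47 ± 0.27) were called too. These rows share sequence with H2-K1 and H2-D1 and are not independent of them, and all class I rows added up to 1 were called as well.
All 5 interferon-inducible proteasome genes were higher in latent TCs. Psmb8 had 430.8, 371.0, 389.3 and 394.7 CPM, against 72.3 to 102.5 CPM in extravascular cells (1.93 ± 0.13, adjusted p = 8.36e-06 in edgeR). Psmb9, which lies head to head with Tap1, had 46.6, 47.3, 41.8 and 61.5 CPM against 6.86 to 14.9 CPM (2.11 ± 0.26). Psmb10 (0.70 ± 0.09), Psme1 (0.92 ± 0.13) and Psme2 (0.39 ± 0.09) were also called. Psmb9 was thus called and Tap1 was not, on 129.9 to 311.2 estimated Tap1 reads in a latent library and 15.0 to 260.6 in an extravascular one. The proliferative pool of day 3.5 had 263.1 CPM of Psmb8, 40.7 of Psmb9, 324.0 of Psmb10, 365.0 of Psme1 and 662.5 of Psme2. For each gene the pool lay above every extravascular and below every latent library.
Of 11 folding and loading partners 6 were lower in latent TCs and 0 higher. These were the chaperones Hspa5 (814.1 against 1304 CPM, -0.82 ± 0.11), Canx (-0.56 ± 0.11) and Calr (-0.59 ± 0.15), the disulfide isomerase Pdia3 (-0.61 ± 0.09) and the translocon subunits Sec61b (-0.58 ± 0.11) and Sec61g (-0.71 ± 0.17). Calr, Pdia3 and Tapbp sit together in the peptide loading complex, and of these Tapbp was not called. Of the 6, 4 stood in latent TCs near their intravascular level: Hspa5 had 814.1 CPM in latent and 899.8 CPM in intravascular cells, Pdia3 323.1 and 337.6 CPM, Calr 294.8 and 260.7 CPM, and Canx 83.4 and 89.9 CPM. Sec61b (477.4 against 738.9 CPM) and Sec61g (15.1 against 30.5 CPM) were below that level as well, and latent cells were not tested against intravascular ones. The count was 3 lower on mean per-cell CPM, and 4 lower and 2 higher on the deposited values.
Of 16 transcription factors 3 were higher and 0 lower: Irf9 (10.7 ± 3.1 against 2.14 ± 0.39 CPM, 2.17 ± 0.33), Irf1 (50.6 ± 4.8 against 23.8 ± 7.8 CPM, 0.94 ± 0.22) and Ciita (0.886 against 0.161 CPM). This count was 1 without extravascular animal 3 or latent animal 4, and 9 on the deposited values. Irf1 and Irf9 are transcription factors of the interferon response. In the proliferative pool Irf1 was at 58.7 CPM, above every latent library (47.8 to 57.8 CPM). Irf9 was at 5.90 CPM there, below every latent library (7.06 to 14.2 CPM). Of 30 interferon-stimulated genes 3 were higher (Ifi35, Gbp2 and Zbp1) and 0 lower, a share of the list near the 8.57% of all genes. This count was 11 without extravascular animal 2, 7 without the proliferative pool and 5 without intravascular animal 1 or latent animal 4, 6 with the replicate number as a block, 8 on library totals or mean per-cell CPM (9.14 and 9.38% of all genes called), 9 in DESeq2 (16.5% of all genes) and 16 on the deposited values (27.1% of all genes). Of 10 interferon receptor and Jak-Stat genes 0 were called in edgeR and DESeq2, and 4 on the deposited housekeeping scale. Of 7 class II genes 2 were called (H2-Eb1, listed at 0 in every extravascular library, and H2-DMa), and 1 without the cells that carried immune markers. The class II count was 0 without extravascular animal 1 or 3 or any 1 latent animal, 1 without extravascular animal 2 or 4 or intravascular animal 4, 4 without intravascular animal 3 or in DESeq2, and 6 on the deposited values.

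**Figure D5:**
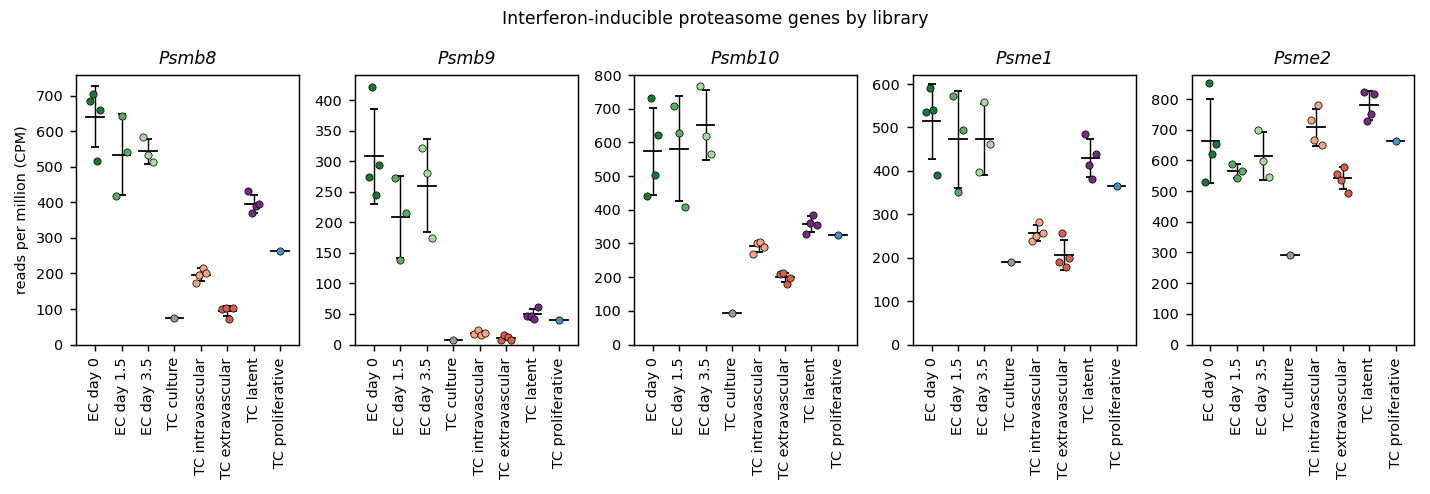
CPM level (linear axis from 0) of the interferon-inducible proteasome genes, 1 point per animal or pool with mean (line) and SD (bar). Among TCs, the 4 latent libraries are highest for Psmb8 (371.0 to 430.8 CPM) and Psmb9 (41.8 to 61.5 CPM), and the extravascular libraries lie below the intravascular ones for Psmb8, Psmb9, Psmb10 and Psme2, of which Psmb9 was not called.

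Proliferative TCs of day 3.5 were 1 pool, listed under the mouse of latent animal 4. H2-K1 in the pool, at 526.6 CPM, lay below the lowest latent animal (animal 4, 630.2 CPM), and so did H2-D1 (1568 against 1732 CPM, also animal 4) and B2m (1622 against 2395 CPM), whereas Tap1 (10.2 CPM) lay above the highest latent animal (7.14 CPM). B2m was at 2414 CPM in the latent cells of the same mouse. The pool has no replicate, and edgeR had to assume for it the spread of the other groups and took it as independent of latent animal 4, so that 0 members and 0% of 19249 genes called (977 genes at an unadjusted p under 0.05) say nothing on whether the cells differ. Of the members B2m was at an unadjusted p under 0.05 (0.61 ± 0.19, unadjusted p = 5.93e-03, adjusted p = 0.759 in edgeR). DESeq2 called 111 genes (2.24% of those it tested) and 0 members.
Against culture there was no replicate and no test. Past 2-fold, intravascular TCs differed from culture in 1 of 8 members (Tapbp, 2.02-fold), where 20.1% of 12063 genes were past 2-fold in either direction. In cells with at most 5% mitochondrial reads Tapbp was short of 2-fold (log2 0.91) and Tap1 past it (log2 1.07). The proliferative pool differed in 4 members, Tap1 (4.56-fold), Erap1 (3.69-fold), Tapbp (2.65-fold) and H2-K1 (2.23-fold), all higher, where 19.7% of 12039 genes were past 2-fold. H2-D1 was 1.78-fold and B2m 1.08-fold higher there. In culture H2-K1 had 236.6 CPM with a 95% Poisson interval of 233.5 to 239.8 CPM and Tap1 2.25 CPM with 1.95 to 2.58 CPM, which cover counting error only.

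Over the 14 TC libraries the genes most like the members, by Pearson's r to their mean pattern among 6835 genes, were H2-T-ps (0.955), Itm2b (0.952), Pdgfrl (0.946), H2-Q6 (0.944) and H2-T22 (0.943). Single members followed the mean of the other 7 with r of 0.89 for H2-K1, 0.84 for H2-D1, 0.78 for Tapbp, 0.65 for Tap2, 0.52 for Erap1, 0.41 for Nlrc5, 0.40 for Tap1 and 0.26 for B2m. Over the 10 EC libraries 7 of these 8 values were negative, from -0.68 for Nlrc5 and Tap1 to -0.09 for B2m, and Erap1 was at 0.19. These values describe libraries that share groups, depth and, for the heavy chains, sequence, and the difference between TC and EC libraries was not tested.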

How the data were processed

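Single cells were sorted into plates and read with a modified SMART-Seq2 protocol without molecular identifiers. Per the labels, the authors quantified reads with Salmon 0.7.2 on GRCm38 (after bcl2fastq); the annotation release is not given in the sources used here. The deposited raw tables hold estimated counts per gene and cell, and the deposited tables of kept cells hold log10 values that the authors scaled to a housekeeping panel, 8 genes of which were found, B2m among them. Kept cells were those of the deposited tables, whose number of TCs differs slightly from the one the study states. Their estimated counts were summed per animal and group, rounded, and tested with edgeR 4.0.16 (quasi-likelihood, TMM, filterByExpr), with Benjamini-Hochberg adjustment over all genes at 0.05. CPM values use the whole library as the total. DESeq2 1.42.0 and limma 3.58.1 (on mean per-cell CPM and on the deposited log10 values) served as alternatives under R 4.3.3. Shares at 100000 reads are expected values under random draws of reads, and exact permutation tests were 2-sided. Likeness used log2(CPM + 1) in genes of mean CPM 10 or more. ECs were classed with Seurat 5.3.0. All 8 members were named, and of the other lists the genes called, up to 6 by adjusted p. Comparisons of TCs with ECs, marker lists and lists with no call are given by counts or left out, although 2 abundant genes of each uncalled list were to be named. The scripts were tested on simulated data. Members and lists were chosen with earlier results of these data known. Each TC gate had its own lane, and p-values measure only the spread between these animals. Per the deposited annotation, cells of 1 number and day come from 1 mouse in ECs and all TC gates but the proliferative pool, listed under the mouse of latent animal 4 (intravascular and extravascular cells: correlation of their deviations from the group means -0.04 to 0.25 over 4 pairs); numbers shared between days join different mice.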

Additional observations from a re-analysis of the deposited data

Results flagged for a closer look

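A single library stood apart from the others of its group in 11 cases among 59 groups tested; chance alone flags about 1 in 20 groups. In extravascular TCs, animal 1 had 577.0 CPM of H2-D1 (others 1017 to 1066 CPM) and 65.98 CPM of Tapbp (others 100.8 to 106.4 CPM), and animal 4 had 1704 CPM of B2m (others 2093 to 2131 CPM). In day 0 ECs, animal 3 had 58.8 CPM of Erap1 (others 9.31 to 12.8 CPM).

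The other 7 concern the percent of cells with reads. Intravascular animal 2 had H2-K1 in 98.7% and H2-D1 in 98.7% of cells where the others had 100%, which is 1 cell. Day 0 EC animal 2 had H2-D1 in 99.6% and day 0 EC animal 1 B2m in 97.7% of cells, against 100% in the others. Intravascular animal 3 had Tap1 in 3.75% of cells (others 10.7 to 11.4%). Nlrc5 was found in 7.52% of cells of day 0 EC animal 2 (others 4.44 to 4.74%) and in 22.5% of cells of extravascular animal 2 (others 10.7 to 11.6%).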

How the results depend on the processing

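The number of members called between latent and extravascular TCs was 2, and 1 (the summed row itself) with all class I rows added up, and 6 on the deposited log10 values (H2-K1, H2-D1, Tap1, Tap2, Nlrc5 and Erap1), where 27.1% of all genes were called. Between gCap and aCap it was 2, and 0 on library totals only, 0 on mean per-cell CPM and 1 (Tapbp) on the deposited log10 values. On mean per-cell CPM Erap1 (log2 1.11) was past 2-fold beside Tapbp between intravascular TCs and culture, and Nlrc5 passed it in the proliferative pool (log2 1.24). The share of all genes past 2-fold on that scale was not computed. Leaving out 1 library at a time gave 0 to 0 members in each comparison of EC days, in extravascular against intravascular and in latent against proliferative TCs, 2 to 2 in latent against extravascular TCs, 2 to 3 between gCap and aCap, 7 to 8 in day 1.5 TCs against ECs and 6 to 6 in latent TCs against day 3.5 ECs. Between gCap and aCap the count of 3 arose without day 3.5 EC animal 1, where H2-K1 was called as well, as it was with RLE factors and in DESeq2. On the deposited log10 values the log2 difference of day 1.5 TCs from ECs reversed to 0.65 for Tapbp, 0.37 for Nlrc5 and 0.70 for Erap1, and that of latent TCs from day 3.5 ECs reversed to 0.50 for Tap2, 1.77 for Tapbp, 1.00 for Nlrc5 and 1.07 for Erap1; the cause was not tested. Of the differences of single members, 783 of the other settings' values stayed on their side of the threshold, 7 passed it, 13 fell short of it, 4 untested ratios moved and 7 reversed.

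With the replicate number or animal as a block, 0 members were called in each comparison of EC days, 0 between extravascular and intravascular TCs (also with the 2 gates alone), 2 between latent and extravascular TCs, 7 in day 1.5 TCs against ECs (8 without it) and 6 in latent TCs against day 3.5 ECs. In the last 3 of these comparisons 1766 of 15639, 9129 of 17052 and 5242 of 16589 genes were called with the block, and 0 genes in each comparison of EC days. Without the block 2 members and 1087 of 13429 genes were called between gCap and aCap. Apart from Erap1 the block changed no call of a member. Over all genes, 183 calls between extravascular and intravascular TCs became 370 with the block, 34 with the 2 gates alone, 316 on library totals, 1401 in DESeq2 and 1454 on the deposited log10 values, and 1193 calls between gCap and aCap became 3616 in DESeq2. The 4 proliferative replicates of the labels could not be set up as 4 libraries, and those alternatives were not run.

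Few reads stand behind Tap1, Tap2, Nlrc5 and Erap1, for Tap1 15.0 to 260.6 estimated reads in an extravascular library. Heavy chain values depend on how reads shared with other class I genes were assigned.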
